A study of Mus musculus with 2 samples.

Results

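Messenger RNA of 10 genes that start or carry out mitochondrial cell death was followed in autoreactive and non-autoreactive immature B cells of the mouse bone marrow. The genes are 8 BH3-only genes (Bmf, Bcl2l11, Bbc3, Pmaip1, Bid, Bad, Bik and Hrk) and the effectors Bax and Bak1. They were chosen by name, with earlier results of these data known. Every probe that carries one of these names or a current synonym was kept, which gave 16 of the 41174 non-control probes of the array. Of these, 15 were tested and the Hrk probe was not. The autoreactive cells came from BALB.B mice with the genotype 3-83Igi,Rag1-/-,H-2b, and the non-autoreactive cells came from BALB/c mice with the genotype 3-83Igi,H-2d. Both groups therefore carry 3-83Igi, a knocked-in antibody receptor that binds H-2b and not H-2d class I molecules, and only the genotype of the autoreactive mice names a disrupted Rag1. Mice were untreated, their age is not given in the sources used here, and the cells were pooled, sorted as B220+ and negative for CD23, CD43 and IgD, and frozen. RNA of the autoreactive cells (Cy5) and of the non-autoreactive cells (Cy3) was hybridised together on each of 2 arrays, with the same dyes on both. Strain, haplotype, Rag1 genotype and dye differ together with autoreactivity and cannot be told apart from it. The series describes biological replicates, but the labels number the autoreactive pools alone and do not name the animals. The p-values therefore speak for these 2 arrays and not for animals. They combine the spread between the arrays with a variance pooled over all tested probes.

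The BCL-2 family decides whether the outer mitochondrial membrane of a stressed cell stays intact. Pro-survival members such as BCL-2, BCL-XL and MCL-1 hold the effectors BAX and BAK in check, and BH3-only proteins bind the pro-survival members, or the effectors directly, when a death signal arrives. Freed effectors form pores, cytochrome c leaves the mitochondria and caspases are activated. In B cells that bind self antigen in the bone marrow, receptor editing comes first and deletion of cells that fail to edit follows. BIM, the product of Bcl2l11, is the best known BH3-only protein in the deletion of autoreactive lymphocytes.

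On each array, 54.1% to 57.4% of spots stood well above background and none was saturated. The log2 ratios of all 22612 tested probes had an SD of 0.34 on array 1 and of 0.48 on array 2. H2-Ea, which H-2b mice do not express, had log2 ratios of -5.22 and -5.26, the direction that the haplotype labels give. The brightest Rag1 probe had log2 ratios of 4.25 and 4.02 although the autoreactive mice are labelled Rag1-/-. Where the disruption lies relative to the probes is not given in the sources used here, so the Rag1 probes do not check that label. All 9 listed markers of B lineage cells were well above background, and 1 of them was called higher and 2 lower. Of 34 tested markers of T, NK, myeloid, erythroid and plasmacytoid dendritic cells, 0 were called higher and 4 lower, with a median log2 ratio of -0.16 on array 1 and -0.85 on array 2. Their summed normalized intensity was 532000 and 460000 in the autoreactive cells, against 447000 and 594000 in the non-autoreactive cells, most of it from the myeloid list. The 7 plasmacytoid dendritic markers had medians of -0.73 on array 1 and -2.33 on array 2, with 0 called and 6 lower at an unadjusted p under 0.05, and the 7 NK markers had -0.044 and -1.33, with 0 called and 3 lower at that level. In sorted bulk cells, fewer cells of a type and less RNA per cell cannot be told apart.

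Bmf was higher in the autoreactive cells at each of its 3 probes, by 4.62-fold at the brightest, while 0 of the other 12 tested probes, which belong to 8 genes, passed the threshold in either direction. Throughout, a ratio is log2 of autoreactive over non-autoreactive intensity, given for array 1 and then array 2, and a call is an adjusted p under 0.05 from limma with Benjamini-Hochberg adjustment over all 22612 probes. Each SE is that of the limma fit, which pools variance over all tested probes, and not the SE of the 2 ratios alone. By that rule 3.18% of all probes tested were called higher and 2.18% lower, and among the member probes 3 of 15 were called higher and 0 of 15 lower. All of the 3 belong to 1 gene. Counted by gene at the brightest probe, 1 of 9 tested members was called higher and 0 lower, against 3.51% and 2.62% of all 15101 genes. The members were chosen with earlier results of these data known, so these counts are no independent evidence about them. The 12 probes that were not called had mean ratios between -0.43 and 0.42, and 2 of them, for Bid and Bak1, had an unadjusted p under 0.05. For 11 of these 12 the 95% confidence interval of the limma fit lay within a 2-fold change, the exception being Pmaip1. Bbc3 is among the 11 although its ratios were 0.83 and -0.70, because the interval draws on the variance of all tested probes. Whether the Bmf ratio differs from those of the other members was not tested. Centring each array on the median in place of loess moved the median of all tested probes to 0.54 and called 9 member probes higher, and centring on the detected probes called Bmf probes 1 and 2 and Bid higher and Bik and Bcl2l11 probe 3 lower.

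**Figure D1:**
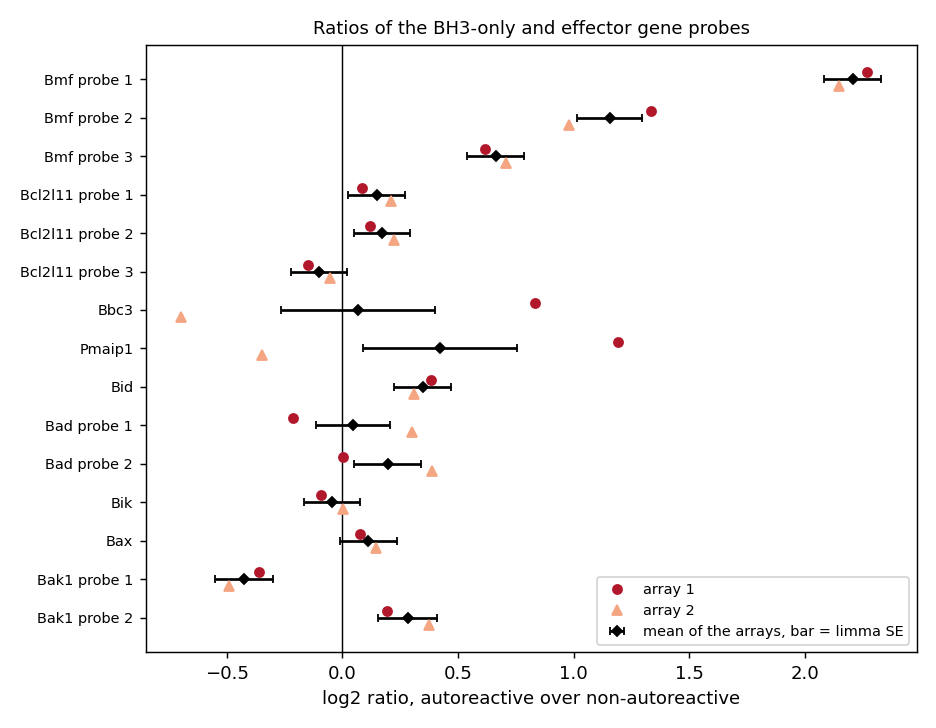
Log2 ratio of autoreactive over non-autoreactive intensity for the 15 tested probes of the death genes, one row a probe. Round and triangular points are the 2 arrays, diamonds their mean and bars the SE of the limma fit. The 3 Bmf probes lie to the right of 0 on both arrays, and the Bbc3 and Pmaip1 points of the arrays lie on opposite sides of 0.

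Bmf encodes a BH3-only protein that is held at the cytoskeleton through dynein light chain and is released after loss of attachment or other stress. Probes of a gene are numbered here by brightness, and intensities are normalized channel values. At Bmf probe 1 the intensity was 28510 on array 1 and 58470 on array 2 in the autoreactive cells, against 5920 and 13170 in the non-autoreactive cells. Both channels were brighter on array 2, by 1.04 log2 units in the autoreactive and 1.15 in the non-autoreactive cells. The groups did not overlap at this probe, but how common that is among all tested probes was not counted. The ratios were 2.27 and 2.15, with a mean of 2.21 ± 0.12 (SE, n = 2 arrays) and a limma adjusted p of 0.00145. The fold was 4.62, with a 95% confidence interval of 3.75 to 5.70. The background-subtracted ratios in the deposited files, made by the scanner software, were also 2.27 and 2.15.

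The other Bmf probes were dimmer and gave smaller ratios in the same direction. At Bmf probe 2 the intensity was 349.5 and 393.5 in the autoreactive cells, against 138.6 and 199.6 in the non-autoreactive cells, a mean ratio of 1.16 ± 0.14 (SE, n = 2 arrays; limma adjusted p = 0.0110). At Bmf probe 3 it was 224.1 and 243.8 in the autoreactive cells, against 146.2 and 149.2 in the non-autoreactive cells, a mean ratio of 0.66 ± 0.12 (SE, n = 2 arrays; limma adjusted p = 0.0371). The groups did not overlap at either probe. How common this is among all tested probes was not counted, so it is not used as evidence here or for other genes. The ratio at probe 1 exceeded that at probe 2 by 0.93 on array 1 and 1.17 on array 2, and exceeded that at probe 3 by 1.65 and 1.44. At these dim probes the ratio moved with the treatment of background: in the deposited ratios it was 1.72 at probe 2 and 1.19 at probe 3, and with a normexp offset of 16 in place of 50 it was 1.40 and 0.84. The folds of 2.23 and 1.58 at probes 2 and 3 therefore hold for this background treatment. A fit of the channels without pairing them by array ended all 3 calls, with adjusted p of 0.123, 0.0883 and 0.132 at probes 1, 2 and 3.

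The array files place all Bmf probes on the minus strand of chromosome 2, in coordinates whose genome build the files do not name. Probe 1 covers positions 118269632 to 118269691, probe 2 positions 118272090 to 118272149 and probe 3 positions 118273425 to 118273484. On the minus strand probe 1 therefore lies 2458 bases downstream of probe 2, which in turn lies 1335 bases downstream of probe 3. The order of the ratios follows that of the positions, with the probe farthest downstream showing the highest. Which exons or untranslated regions the probes fall in could not be read from the files. Rag1 lies on the same chromosome at 16.8 Mb from Bmf in the same coordinates, and Bcl2l11 at 26.4 Mb from Rag1. Among the 74 tested genes between Rag1 and Bmf, 7 were called higher and 7 lower, 9.46% each, against 3.51% and 2.62% of all genes, with a median ratio of -0.0028. The part of this region in the Bmf ratio was not tested.

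**Figure D2:**
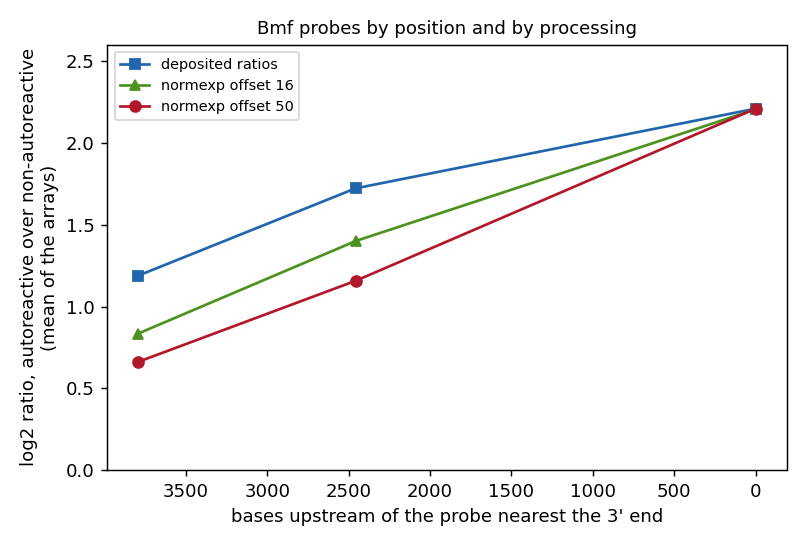
Log2 ratio at the 3 Bmf probes against their distance upstream of probe 1 in bases, as the mean of the 2 arrays under normexp with an offset of 50 or 16 and in the deposited ratios. The lines meet near 2.21 at probe 1 and spread to 0.66, 0.84 and 1.19 at probe 3.

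Among all 15101 genes ranked by ratio, Bmf stood at place 20 from the highest. The genes nearest to it in their ratios over the 2 arrays were Tmem132e, with ratios of 2.10 and 2.12 at a distance of 0.176 log2 units, Prelid2, with 2.45 and 2.19 at 0.190, and the transcription factor gene Hey1, with 2.17 and 2.34 at 0.217. Likeness here rests on 2 arrays, and says nothing of shared function.

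**Figure D3:**
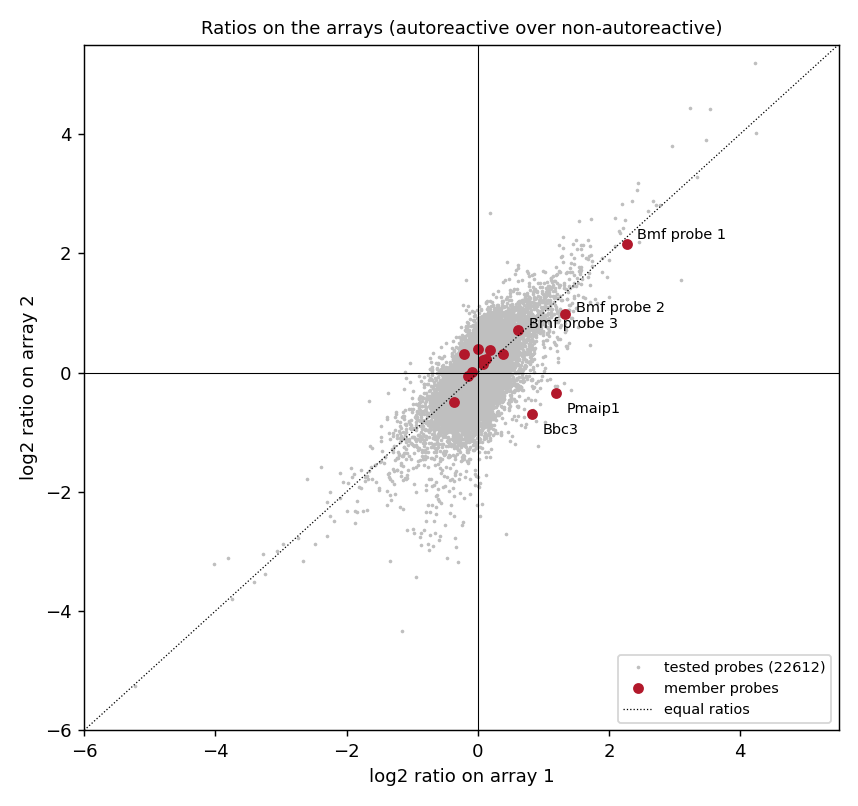
Log2 ratio on array 2 against that on array 1 for the 22612 tested probes (grey) and the 15 tested member probes (red), with the line of equal ratios. Bmf probes 1 and 2 lie toward the upper right end of the grey cloud, and Bbc3 and Pmaip1 lie to the lower right of most grey points.

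FoxO transcription factors are known to drive Bcl2l11 and Bbc3 in several cell types, and 6 of 10 tested FoxO genes and targets were called higher in the autoreactive cells, as given further on. The 250 bases before each annotated start of the members were therefore searched for the FoxO core GTAAACA and its reverse complement TGTTTAC, a motif chosen after those results were seen. Windows come from RefSeq on GRCm38.p6, the reference strain and not the strains used here, and are printed 5′ to 3′ on the gene's strand with the motif in capitals. The 3 Bmf windows are shown because Bmf was the called gene, and the Bbc3 and Bcl2l11 windows because they hold the motif.
Bmf chr2:118549687-118549936: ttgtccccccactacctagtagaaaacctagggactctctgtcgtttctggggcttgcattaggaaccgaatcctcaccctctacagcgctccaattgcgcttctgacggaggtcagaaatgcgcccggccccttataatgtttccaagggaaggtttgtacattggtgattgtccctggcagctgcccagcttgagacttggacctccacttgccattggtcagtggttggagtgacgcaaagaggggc
Bmf chr2:118547600-118547849: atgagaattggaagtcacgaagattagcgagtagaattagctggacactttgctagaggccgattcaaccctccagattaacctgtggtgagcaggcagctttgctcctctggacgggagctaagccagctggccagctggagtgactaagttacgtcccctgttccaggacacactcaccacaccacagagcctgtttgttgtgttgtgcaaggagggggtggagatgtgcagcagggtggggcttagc
Bmf chr2:118544588-118544837: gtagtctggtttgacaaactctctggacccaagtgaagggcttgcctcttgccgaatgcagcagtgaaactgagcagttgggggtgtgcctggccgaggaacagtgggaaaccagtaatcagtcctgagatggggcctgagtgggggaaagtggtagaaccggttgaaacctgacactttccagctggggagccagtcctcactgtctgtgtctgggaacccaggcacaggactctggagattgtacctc
Bbc3 chr7:16310011-16310260: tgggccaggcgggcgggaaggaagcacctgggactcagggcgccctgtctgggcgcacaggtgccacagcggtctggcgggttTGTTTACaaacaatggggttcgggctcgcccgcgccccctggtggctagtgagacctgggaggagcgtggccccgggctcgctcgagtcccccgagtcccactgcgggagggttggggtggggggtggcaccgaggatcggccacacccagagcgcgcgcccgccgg
Bcl2l11 chr2:128125788-128126037: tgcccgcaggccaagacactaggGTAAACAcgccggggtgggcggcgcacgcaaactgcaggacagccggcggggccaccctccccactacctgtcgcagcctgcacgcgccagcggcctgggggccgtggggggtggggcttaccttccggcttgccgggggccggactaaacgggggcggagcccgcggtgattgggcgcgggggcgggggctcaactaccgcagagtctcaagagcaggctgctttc
The Bmf windows lie on the minus strand and the other windows on the plus strand. The core was in 2 of 14 windows of the 8 members that the table holds, starting 167 bases before the start in Bbc3 and 227 bases before it in Bcl2l11, and in 0 of the 3 Bmf windows. It was in 1040 of all 32851 windows, 3.17%. Bik and Pmaip1 were not matched in the table. A match is a run of letters and not a measured binding site, and a window without it says nothing of FoxO factors elsewhere at the gene.

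Bcl2l11, the gene of BIM, was not called at any of its 3 probes. At Bcl2l11 probe 1 the intensity was 2960 and 3472 in the autoreactive cells, against 2789 and 3002 in the non-autoreactive cells. The values overlap, since the autoreactive value of array 1 lies below the non-autoreactive value of array 2. The mean ratio was 0.15 ± 0.12 (SE, n = 2 arrays; limma adjusted p = 0.507), a fold of 1.11 with a 95% confidence interval of 0.898 to 1.37. Probe 2, which is placed across 11096 bases of the genome and so spans a splice junction, had 220 and 215.5 in the autoreactive cells, against 202.4 and 184.8 in the non-autoreactive cells (mean ratio 0.17, adjusted p = 0.442). Probe 3, annotated to a cDNA clone, had 147.8 and 150.9 in the autoreactive cells, against 163.9 and 156.6 in the non-autoreactive cells (mean ratio -0.10, adjusted p = 0.651). Both of these probes were dim. At each of them the groups did not overlap, but in opposite directions.

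Bbc3 and Pmaip1, which encode PUMA and NOXA and are known targets of p53, had ratios of opposite sign on the arrays. Bbc3 had intensities of 3181 and 2432 in the autoreactive cells, against 1788 and 3950 in the non-autoreactive cells. Pmaip1 had 1907 and 1516 in the autoreactive cells, against 834.1 and 1930 in the non-autoreactive cells. For both genes the autoreactive values lay inside the range of the non-autoreactive values, and the non-autoreactive channel moved more between arrays than the autoreactive one. On array 2 relative to array 1 the non-autoreactive channel was higher by 1.14 log2 units for Bbc3 and 1.21 for Pmaip1, and the autoreactive channel fell by 0.39 for Bbc3 and fell by 0.33 for Pmaip1.

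The ratios of Bbc3 were 0.83 and -0.70, with a mean of 0.066 ± 0.33 (SE, n = 2 arrays; limma adjusted p = 0.925) and a 95% confidence interval of the fold from 0.597 to 1.84. The ratios of Pmaip1 were 1.19 and -0.35, with a mean of 0.42 ± 0.33 (SE, n = 2 arrays; limma adjusted p = 0.483) and an interval from 0.761 to 2.36. The means describe neither array. The arrays differed by 1.53 for Bbc3 and 1.54 for Pmaip1, and a difference at least as large, in either direction, was found at 72 and 70 of all tested probes, 0.318% and 0.31%. With 2 arrays it was not tested which of them stands apart. The 8 tested genes of the unfolded protein response list, given further on, had a median ratio of 0.062 on array 1 and -0.21 on array 2. Whether they share a cause with Bbc3 and Pmaip1 was not tested. The markers of other cell types listed above also had a lower median ratio on array 2 (-0.85) than on array 1 (-0.16). Not every marker was lower there, Cd3e and S100a8 being 2 that were higher. The part of these markers in the ratios of Bbc3 and Pmaip1 was not tested.

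**Figure D4:**
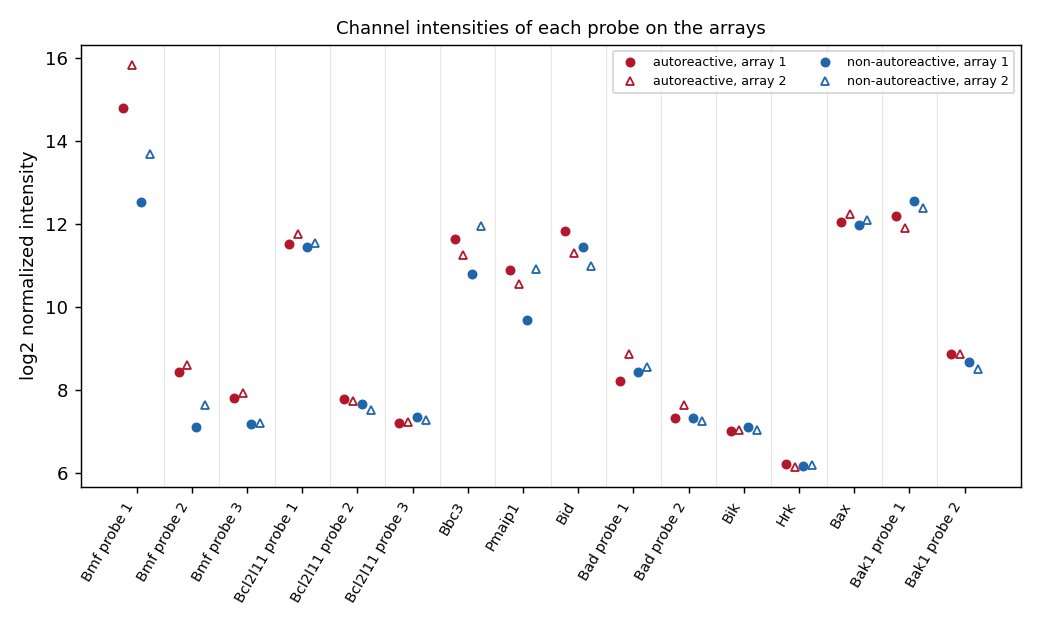
Normalized channel intensity (log2 scale) of all 16 member probes in the autoreactive (red) and the non-autoreactive (blue) cells on array 1 (circles) and array 2 (triangles). Each Bmf probe is brighter in the autoreactive channel on both arrays, Bbc3 and Pmaip1 change order between arrays, and Hrk lies near the floor in all 4 channels.

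Bid, whose product is cleaved by caspase-8 and links death receptors to mitochondria, had intensities of 3628 and 2547 in the autoreactive cells, against 2786 and 2052 in the non-autoreactive cells. The autoreactive channel was the brighter one on both arrays, though the groups overlap across arrays. The ratios were 0.38 and 0.31, with a mean of 0.35 ± 0.12 (SE, n = 2 arrays). Its unadjusted p was 0.0294 and its limma adjusted p 0.167, so it did not pass, and the 95% confidence interval of the fold was 1.03 to 1.56. Bid was called higher in 2 of 9 other settings, those with median centring over all or over the detected probes.

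Bad, whose product is held inactive by survival kinases, was dim at both of its probes. Bad probe 1 had 300.9 and 466.5 in the autoreactive cells, against 348.6 and 378.2 in the non-autoreactive cells, and a mean ratio of 0.045 ± 0.16 (SE, n = 2 arrays; limma adjusted p = 0.891). Bad probe 2 had 161.9 and 200.9 in the autoreactive cells, against 161.6 and 153.6 in the non-autoreactive cells, and a mean ratio of 0.20 ± 0.14 (SE, n = 2 arrays; limma adjusted p = 0.453). The files place the probes on opposite strands, and probe 1 is annotated to a cDNA clone, so it may not read the same transcript. On array 1 the ratio of probe 1 was -0.21 and on array 2 it was 0.30, and neither probe was called.

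Bik and Hrk, BH3-only genes known best in epithelial and neuronal cells, had low intensities. Bik had 129.9 and 131.3 in the autoreactive cells, against 138.5 and 131.1 in the non-autoreactive cells, with a mean ratio of -0.045 ± 0.12 (SE, n = 2 arrays; limma adjusted p = 0.852). Hrk was not well above background in any of the 4 channels, at 74.69 and 71.5 in the autoreactive cells, against 72.45 and 73.73 in the non-autoreactive cells. No ratio is given for it.

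The effectors Bax and Bak1, which form the pores, were not called at any of their 3 probes. Bax had 4281 and 4857 in the autoreactive cells, against 4057 and 4392 in the non-autoreactive cells. The groups overlap across arrays. Its ratios were 0.078 and 0.15, with a mean of 0.11 ± 0.12 (SE, n = 2 arrays; limma adjusted p = 0.616) and a 95% confidence interval of the fold from 0.879 to 1.33. The Bax probe is spotted 10 times on each array, and the spots used, 7 on array 1 and 9 on array 2, had ratio SDs of 0.058 and 0.032. These measure the printing and scanning alone, as all spots of an array share the same RNA.

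Bak1 probe 1 had intensities of 4715 and 3845 in the autoreactive cells, against 6063 and 5401 in the non-autoreactive cells, so the groups did not overlap. The ratios were -0.36 and -0.49, with a mean of -0.43 ± 0.12 (SE, n = 2 arrays). The fold was 0.744, with a 95% confidence interval of 0.603 to 0.918, an unadjusted p of 0.0136 and a limma adjusted p of 0.116, which misses the threshold. Bak1 probe 2 had 465.7 and 471.6 in the autoreactive cells, against 407.9 and 363.8 in the non-autoreactive cells, without overlap and with a mean ratio of 0.28 ± 0.13 (SE, n = 2 arrays; limma adjusted p = 0.247). The probes of Bak1 thus had ratios of opposite sign, and neither was called. Bak1 lies 7.22 Mb from H2-Ea on chromosome 17, on the chromosome where BALB.B and BALB/c mice differ at H-2, and the part of strain in its ratio was not tested.

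The pro-survival genes are the binding partners of BH3-only proteins, and 1 of their 5 tested members was called. Bcl2l1, the gene of BCL-XL, had ratios of 0.61 and 0.64 and a mean of 0.63 (limma adjusted p = 0.0422), while its other probes had 0.39 and 0.27. That call was lost in 4 of 9 other settings, the deposited ratios among them. Mcl1 had a mean ratio of 0.081 (adjusted p = 0.791), Bcl2l2 -0.34 (adjusted p = 0.191) and Bcl2 -0.38 (adjusted p = 0.293). The median over the 5 genes was -0.34, against -0.0019 over all genes tested. Bnip3, a mitochondrial protein with a BH3-like stretch known from hypoxia and mitophagy, had ratios of 1.54 and 1.71 and was the 1 called among 8 tested other BCL-2 relatives (mean 1.62, limma adjusted p = 0.00338).

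**Figure D5:**
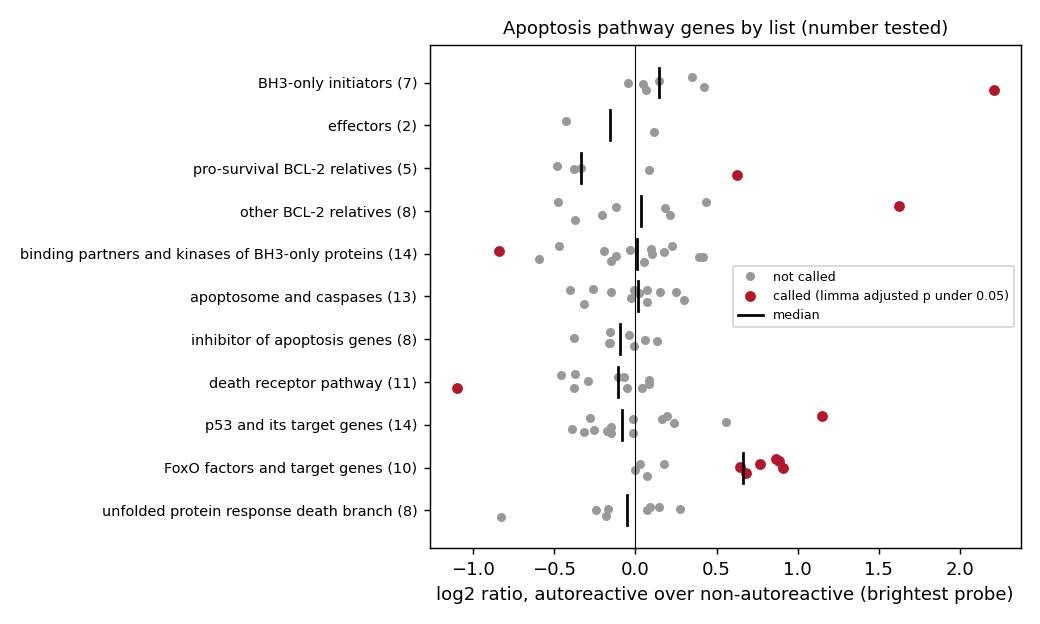
Mean log2 ratio of each tested gene of the death pathway at its brightest probe, grouped by list, with a vertical mark at each list's median and genes that passed the threshold in red. Bmf stands at 2.21 among the BH3-only genes, and 6 of the 10 FoxO genes and targets passed, with a median of 0.66.

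The 9 other lists of the death pathway together, those above included, gave 9 genes called higher and 2 lower of 91 tested and 101 listed, with a median ratio of -0.012; over all genes 3.51% were called higher and 2.62% lower. With the mean over the probes of a gene in place of the brightest probe, 6 were called higher. Downstream of the effectors, 0 of 13 apoptosome and caspase genes were called, and 0 of 8 inhibitor of apoptosis genes, among which Naip5 had the ratio farthest from 0 (-0.38, limma adjusted p = 0.23). At an unadjusted p under 0.05, limma gave 1 of the 13 and 0 of the 8. Among 14 binding partners and kinases of BH3-only proteins, Rps6ka1, which encodes a kinase that phosphorylates BAD, was lower, with ratios of -0.60 and -1.08 (mean -0.84, adjusted p = 0.0367), though its other probe had 0.27. Of 11 tested death receptor genes, Tnf was lower, with -0.80 and -1.40 (mean -1.10, adjusted p = 0.0233). Its probe was dim, at 198.5 and 161.1 in the autoreactive cells, against 345.3 and 426.4 in the non-autoreactive cells. Over the 9 other settings its mean ratio ranged from -1.54 to -0.84. Of 14 tested genes of the p53 pathway, Trp53inp1 was higher, with 1.01 and 1.29 (mean 1.15, adjusted p = 0.00974), and its other probe had 0.30. Among 8 tested genes of the death branch of the unfolded protein response 0 were called, and Atf3 had the mean farthest from 0 (-0.83, adjusted p = 0.16), with 1 of the 8 under an unadjusted p of 0.05. The calls of Rps6ka1 and Tnf were lost in 4 and 2 of 9 other settings, and those of Bnip3 and Trp53inp1 in 0.

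FoxO factors switch on death, arrest and catabolic genes when signalling through phosphoinositide 3-kinase is low, and 6 of the 10 tested genes of that list were called higher and 0 lower, against 3.51% of all genes called higher, with a median ratio of 0.66. The 5 with the highest ratios were Gabarapl1, an autophagy gene (0.91, limma adjusted p = 0.0164), Ccng2, a cyclin linked to arrest (0.88, adjusted p = 0.0204), Pik3ip1, an inhibitor of phosphoinositide 3-kinase (0.87, adjusted p = 0.0198, its other probe at 0.029), Fbxo32, a ubiquitin ligase subunit (0.77, adjusted p = 0.0301) and Il7r, the interleukin-7 receptor (0.68, adjusted p = 0.0467). The call of Il7r was lost in 5 of 9 other settings, and those of the other 4 in 1 to 3. With the deposited ratios 2 of the 10 were called higher, without the filter on dim probes 3 of 12, and with the channels fitted without pairing by array 0 of 10. The list was made with earlier results of these arrays known, so its count is no independent evidence of its direction.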

How the data were processed

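RNA of sorted, pooled immature B cells was compared on 2 two-colour Agilent mouse arrays, autoreactive (Cy5) against non-autoreactive (Cy3). The deposited files hold mean spot intensity and local background intensity per channel as Agilent Feature Extraction (version 9.5.1.1 in the file headers) read them. The log10 ratio of Cy5 over Cy3 deposited by the authors was background-subtracted and dye-normalized by that program, per the file headers, and the deposited table of the series matches these log10 ratios to within 5e-10.

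In limma 3.58.1 (R 4.3.3), mean intensities were corrected with normexp (offset 50, median background) and normalized by loess within arrays. Control and outlier spots had no weight, repeated spots were averaged, and 22612 of 41174 probes were tested, namely those that passed the well-above-background flag in 1 or both channels of array 1 and of array 2. Probes were named through RefSeq symbols and synonyms. Log2 ratios were tested against 0, two-sided, with 1 residual and 5.10 prior degrees of freedom. Channel levels were scaled by Aquantile after loess. A gene is its brightest tested probe. The number of arrays limits the precision. The fit was also run on simulated data whose variances were drawn from the fit itself, which does not check the calls reported here.

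Named were every member, up to 5 called genes of each pathway list or otherwise the gene with the ratio farthest from 0, Bcl2, Bcl2l1, Mcl1 and Bcl2l2, and the 3 genes nearest to Bmf. The gene this rule picks in the apoptosome and caspase list is not reported here. Members and lists were chosen with earlier results of these data known. Alternatives changed background, source of ratios, centring, filter, variance model, pairing by array and the probe that stands for a gene. Both arrays lay on 1 slide with 1 scan, so no slide block was possible. The pairing comes from the arrays, on which both groups were hybridised together.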

Additional observations from a re-analysis of the deposited data

How the results depend on the processing

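Bmf kept its direction at all 3 probes in all 9 other settings and on each array alone. Its ratio ranged from 2.21 to 3.25 at probe 1, from 0.86 to 1.72 at probe 2 and from 0.28 to 1.19 at probe 3. Separate channels without pairing by array (no replicate block) ended all 3 calls, with limma adjusted p of 0.123, 0.0883 and 0.132. That fit called 127 probes higher and 89 lower, against 718 and 493 with the pairing, and 0 member probes, and 2 and 0 pathway genes, against 3 member probes and 9 and 2 pathway genes. The deposited ratios gave 433 probes higher, and 4 and 1 pathway genes. Median centring moved the median of all tested probes to 0.54 and called 14276 probes, 9 member probes and 66 pathway genes higher, and 518 probes and 1 pathway gene lower; 96.5% of its probe calls were higher, against 59.3% in the reported fit and 47% with centring on detected probes. Centring on the median of the detected probes, a setting chosen after seeing the data, called 3486 and 3934 probes, 2 member probes lower (Bik and Bcl2l11 probe 3) and 3 higher (Bmf probes 1 and 2 and Bid), and 29 and 14 pathway genes, and ended the call of Bmf probe 3 (0.28, adjusted p = 0.145). Without the filter 301 probes were called lower, and 5 and 0 pathway genes. Bak1 probe 1 was at 0.33 under median centring, and Bad probe 1 at -0.15, Bad probe 2 at -0.23 and Bcl2l11 probe 2 at -0.18 under centring on detected probes; the cause was not tested. An array alone gives ratios and no test. Hrk was not well above background in any channel. The other member probes passed that flag in all 4 channels, but the ratios of Bmf probes 2 and 3 moved with the background treatment.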
